A study of Mus musculus with 6 samples.

Results

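Penk, Tac1, Crhbp, Col25a1, Ebf3 and Nefl are 6 genes of retinal ganglion cell (RGC) subtypes, neuropeptide signalling and the neurofilament cytoskeleton. They were taken by name from a table of 701 genes, and all 6 were measured there. Penk encodes proenkephalin, the precursor of the enkephalin opioid peptides, and Tac1 encodes the precursor of substance P and neurokinin A. Crhbp encodes a secreted protein that binds corticotropin-releasing hormone. Col25a1 encodes a transmembrane collagen, Ebf3 a transcription factor of the EBF family and Nefl the light chain of neurofilaments. The question was how the RNA of these genes differed between the injured retinae of WT mice and of mice without the serotonin transporter.

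RNA was sequenced from the peripheral ventrotemporal (VT) retina 24 hours (1 day) after optic nerve crush (ONC), an injury in which the optic nerve behind the left eye is squeezed with forceps. The groups were 3 samples of WT mice and 3 samples of Slc6a4-/- mice, labelled strain C57BL/6 at postnatal day 56, and the crush was given to both groups. Slc6a4-/- mice lack the serotonin transporter SERT in every tissue, not in RGCs alone. VT retinae from 3 mice went into each sample, and no sample came from an uninjured eye, so the response to the crush itself cannot be read from these data. In bulk RNA of this kind, fewer cells of a type and less RNA per cell cannot be told apart.

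RGCs send their axons through the optic nerve, and their many subtypes are told apart by the transcription factors, adhesion proteins and peptides they make. Neuropeptides are cut from larger precursors, released from dense-core vesicles, and act on G protein-coupled receptors until binding proteins or peptidases remove them, and in the retina they are made by subsets of amacrine cells and RGCs. Neurofilaments are polymers of light, medium and heavy chains with alpha-internexin that fill large axons, RGC axons among them.

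The targeted gene, Slc6a4, had 1649, 1467 and 1627 scaled counts in the WT samples and 0, 0 and 3.06 in the Slc6a4-/- samples. A scaled count is the number of reads of a gene divided by the relative depth of its library. Depth was 76.1 to 78.8 M reads in the WT libraries and 81.1 to 93.3 M reads in the Slc6a4-/- libraries. All 701 genes had been selected at an unadjusted p-value below 0.05 on these same 6 samples, so a p-value here is not independent evidence. It sets the difference between genotypes against the spread between pools. Of 14 RGC genes looked for, only Zic1 and the deleted gene Slc6a4 were in the table. The RGC content of the samples thus could not be checked from it.

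Promoter sequences, from 250 bases before to 50 bases after a RefSeq transcription start on GRCm38.p6, were matched by symbol for 4 of the 6 genes, Col25a1, Tac1, Crhbp and Ebf3. They were searched on both strands for the cAMP response element core TGACG, the TATA box TATAAA, the palindromic EBF site and the octamer-like POU site ATGCNAAT, the last chosen after the Col25a1 sequence had been seen. No match of 1 motif overlapped a match of another in these windows. The peptide-system genes Tac1 and Crhbp are shown because both held the cAMP response element core, which is in capitals. Tac1 had 2 matches, at -197 and -43 bases from its RefSeq start, and Crhbp had 1 match, at -64. In GENCODE M21 the RefSeq start of Tac1 lies 182 bases inside the gene, and that of Crhbp 93 bases inside. The nearest GENCODE transcript starts are 13 and 0 bases away. The Tac1 match at -43 and the Crhbp match thus lie inside the genes as GENCODE annotates them. The Tac1 window is chr6:7554811-7555110 on the plus strand and the Crhbp window is chr13:95444782-95445081 on the minus strand.
Tac1: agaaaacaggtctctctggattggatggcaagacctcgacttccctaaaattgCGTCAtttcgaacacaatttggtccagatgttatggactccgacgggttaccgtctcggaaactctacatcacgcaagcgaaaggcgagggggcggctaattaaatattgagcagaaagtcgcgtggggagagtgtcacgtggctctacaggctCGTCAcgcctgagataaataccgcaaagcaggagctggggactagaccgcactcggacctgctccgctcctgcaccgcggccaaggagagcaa
Crhbp: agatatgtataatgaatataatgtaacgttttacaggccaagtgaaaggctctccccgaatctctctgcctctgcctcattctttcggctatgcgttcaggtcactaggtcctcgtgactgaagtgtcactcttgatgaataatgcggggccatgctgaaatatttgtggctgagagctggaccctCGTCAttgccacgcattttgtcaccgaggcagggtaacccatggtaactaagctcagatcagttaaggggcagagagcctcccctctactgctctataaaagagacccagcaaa
Of 32851 RefSeq promoters of this length, 20.8% held at least 1 TGACG and 5.01% held at least 2. Ebf3, at chr7:137314396-137314695 on the minus strand, also held 2 matches, at -140 and -44, so the core was shared by genes with a higher and with a lower mean in Slc6a4-/- mice. Crhbp had in addition a TATA box 30 bases after the RefSeq start, a motif held by 13.6% of promoters.

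The Col25a1 window, chr3:130180595-130180894 on the plus strand, is shown for its 3 octamer-like matches, in capitals. The RefSeq start used here is an internal one, 49344 bases inside the gene as GENCODE M21 annotates it and 46 bases from the nearest of 3 GENCODE transcript starts. The matches lay at -167, -154 and -68 bases from the RefSeq start.
Col25a1: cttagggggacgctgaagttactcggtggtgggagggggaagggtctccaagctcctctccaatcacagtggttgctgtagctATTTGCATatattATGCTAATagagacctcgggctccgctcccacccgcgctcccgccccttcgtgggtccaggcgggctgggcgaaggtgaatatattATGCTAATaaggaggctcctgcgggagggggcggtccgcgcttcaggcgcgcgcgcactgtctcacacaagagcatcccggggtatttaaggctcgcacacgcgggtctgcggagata
At least 1 such match was held by 3.15% of promoters and at least 3 by 0.0244%, which is 8 promoters. Since the motif was chosen after this sequence had been seen, these shares do not measure how unusual Col25a1 is. POU-domain factors of the POU4F family are known regulators of RGCs, but a match of letters is not a binding site. None of the 4 windows held the EBF site, which 0.904% of promoters held.

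The mean of Penk, Tac1, Crhbp and Col25a1 was higher in Slc6a4-/- samples and the mean of Ebf3 and Nefl was lower. The largest differences were those of Penk, 2.28-fold by the ratio of means, and Crhbp, 2.02-fold, and these were also the genes with the widest spread among WT samples. With limma on log2(scaled count + 1) and p-values adjusted by Benjamini-Hochberg across all 701, 0 of the 6 genes had an adjusted p below 0.05, against 11 of 701 (1.57%) in the whole table. An unadjusted limma p below 0.05 was reached by 2 of the 6, Tac1 and Crhbp, against 334 of 701 (47.6%). The 3 values of one genotype all lay above the 3 of the other for 1 of the 6, Crhbp, against 426 of 701 (60.8%). The median log2 difference of the 6 was 0.38, beside 0.299 over all 701 genes, where the mean was higher for 397 genes and lower for 304 in the Slc6a4-/- group. In size of the log2 difference, 37 genes of the table lay above Penk, 81 above Crhbp, 344 above Tac1, 568 above Col25a1, 647 above Nefl and 656 above Ebf3.

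**Figure D1:**
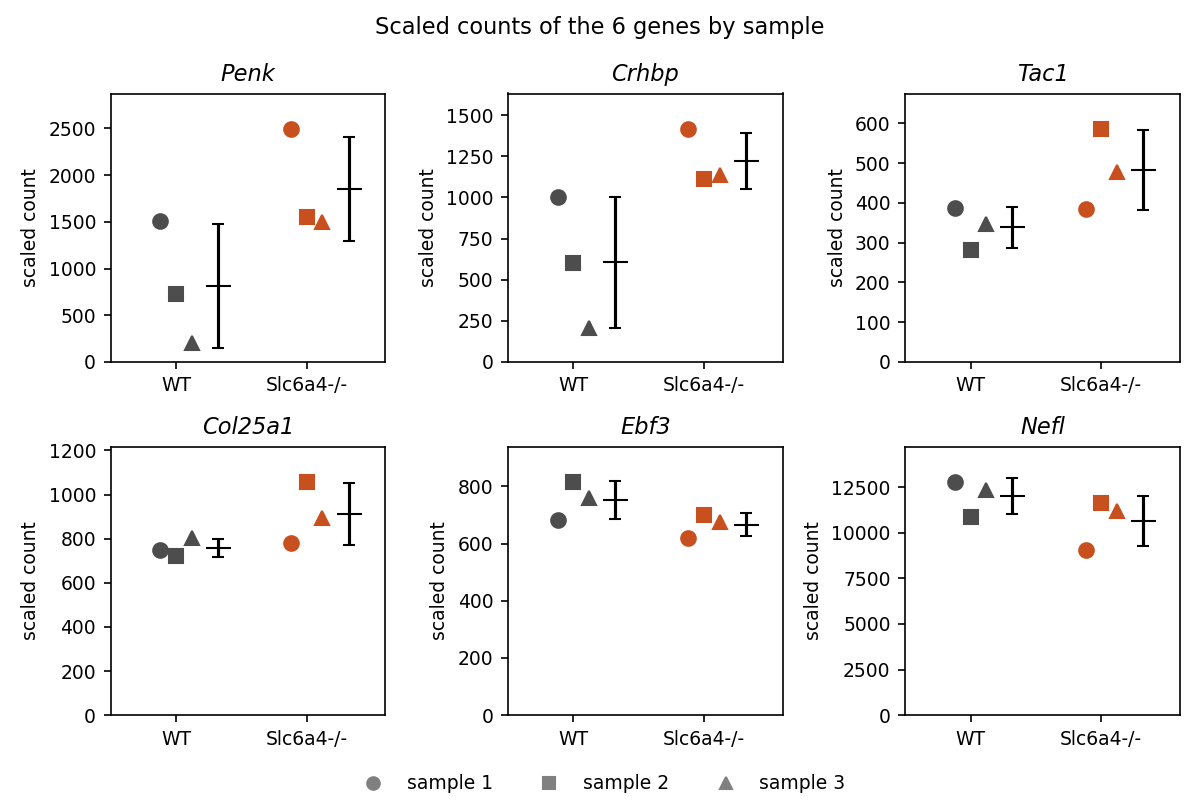
Scaled counts (linear axis from 0, a separate scale for each gene) of the 6 genes in the 3 WT and 3 Slc6a4-/- samples; each point is a sample, its shape gives the replicate, and the bars show the mean and SD of the 3. Only the Crhbp groups do not overlap, and Penk and Crhbp share a wide WT spread with WT replicate 3 lowest.

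Penk lies at chr4:4133531-4138819 on the minus strand (GRCm38). It had 1513, 729 and 198 scaled counts in WT replicates 1, 2 and 3 and 2499, 1555 and 1500 in Slc6a4-/- replicates 1, 2 and 3. The WT samples ranged 7.66-fold and the highest of them lay just above the lowest Slc6a4-/- sample, so the groups overlapped. Penk averaged 813 ± 662 scaled counts in WT and 1851 ± 562 in Slc6a4-/- samples (SD, n = 3 each). The log2 difference was 1.58 with an SE of 0.69 and a 95% interval from -0.07 to 3.22 (limma, adjusted p = 0.106). The exact two-sided permutation test over samples gave p = 0.2, where 0.1 is the smallest value that 3 samples against 3 allow. Its WT coefficient of variation was 81.4%, against 4.59% from counting alone, so the spread between pools and not the number of reads limited this comparison.

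WT replicate 3 set much of the Penk estimate. Without it the log2 difference was 0.78 (limma, adjusted p = 0.181), and without WT replicate 1 it was 2.24 (limma, adjusted p = 0.049), a fit in which 170 of the 701 genes passed. An exon of Penk overlaps an exon of A830012C17Rik on the opposite strand. The kit kept strand, but whether the counting used it is not given in the sources used here.

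Tac1, the tachykinin precursor gene at chr6:7554879-7565834 on the plus strand, had 386, 282 and 347 scaled counts in the WT samples. The Slc6a4-/- samples had 384, 587 and 478. The groups overlapped only between WT replicate 1 and Slc6a4-/- replicate 1, which were nearly equal. Tac1 averaged 338 ± 52.3 in WT and 483 ± 102 in Slc6a4-/- samples (SD, n = 3 each). Its log2 difference was 0.50 with an SE of 0.20 and a 95% interval from 0.03 to 0.97 (limma, adjusted p = 0.102). The exact two-sided permutation p was 0.2.

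Of 22 genes listed as neuropeptide genes, 5 were in the table. Limma's adjusted threshold was passed by 0 of the 5, where 1.57% of the whole table passed. Vip, which encodes vasoactive intestinal peptide of a class of amacrine cells, had 295, 273 and 280 scaled counts in WT and 346, 487 and 373 in Slc6a4-/- samples. Its groups did not overlap, and the log2 difference was 0.49 (limma, adjusted p = 0.0981). Pdyn, the prodynorphin gene and like Penk a source of opioid peptides, had 389, 377 and 366 scaled counts in WT and 517, 560 and 434 in Slc6a4-/- samples, a log2 difference of 0.41. Nxph4, which encodes the secreted protein neurexophilin 4, had the only lower mean in Slc6a4-/- samples, with 80.5, 72.5 and 68.3 scaled counts in WT against 47.0, 46.0 and 30.6. The WT spread of Vip and Pdyn was a few percent of the mean, unlike that of Penk. Over the 5 genes the median log2 difference was 0.49, with 4 higher and 1 lower mean, where 397 of all 701 genes were higher and 304 lower.

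Of 14 genes listed as neuropeptide receptors, Mc4r and Gpr101 were in the table, both at low counts and with a lower mean in Slc6a4-/- samples. The melanocortin receptor gene Mc4r had 34.8, 54.6 and 55.7 scaled counts in WT and 27.5, 26.7 and 28.6 in Slc6a4-/- samples, a log2 difference of -0.76 (limma, adjusted p = 0.1). Gpr101 had 19.6, 10.5 and 26.3 scaled counts in WT and 7.1, 9.19 and 10.2 in Slc6a4-/- samples, a log2 difference of -0.93 (limma, adjusted p = 0.107). Neither pair of groups overlapped, where 60.8% of the whole table did not overlap in either direction. For Gpr101, WT replicate 2 and Slc6a4-/- replicates 2 and 3 each had 10 raw reads, so its separation appeared only after scaling. For Mc4r, WT replicate 1 had 32 raw reads and Slc6a4-/- replicate 1 had 31. Neither gene is a receptor for enkephalins or tachykinins.

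Crhbp, at chr13:95431371-95444924 on the minus strand, had 1005, 603 and 207 scaled counts in WT replicates 1, 2 and 3. It had 1419, 1114 and 1133 in the Slc6a4-/- samples, all above the WT samples. The means were 605 ± 399 and 1222 ± 171 scaled counts (SD, n = 3 each). The log2 difference was 1.28 with an SE of 0.53 and a 95% interval from 0.01 to 2.54 (limma, adjusted p = 0.104). The exact two-sided permutation p was 0.1, the smallest possible here. The WT samples ranged 4.85-fold in the same order as for Penk, and their coefficient of variation was 66.0% against 4.86% from counting. Without WT replicate 3 the Crhbp log2 difference was 0.64 (limma, adjusted p = 0.171), and without WT replicate 1 it was 1.78 (limma, adjusted p = 0.049).

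Of 15 genes for peptide processing, binding and breakdown, 4 were in the table, 3 with a higher and 1 with a lower mean. Limma's adjusted threshold was passed by 0 of the 4, where 1.57% of the whole table passed. Mme, which encodes neprilysin, a peptidase that cuts enkephalins and substance P, had 200, 121 and 59.9 scaled counts in WT. It had 284, 233 and 167 in Slc6a4-/- samples, a log2 difference of 0.97 (limma, adjusted p = 0.107). WT replicate 1 was highest and WT replicate 3 lowest for Mme, as for Penk and Crhbp. Enpep, which encodes the peptidase aminopeptidase A, had 82.7, 66.2 and 69.4 scaled counts in WT and 102, 127 and 90.9 in Slc6a4-/- samples. Pcsk1n, which encodes an inhibitor of prohormone convertase 1, had 426, 454 and 427 scaled counts in WT and 184, 191 and 461 in Slc6a4-/- samples, so that Slc6a4-/- replicate 3 stood with the WT samples.

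Genes of other cell types moved with Penk and Crhbp across the samples. Likeness was measured as the root mean square distance between log2(scaled count + 1) profiles over the 6 samples, each centred on its own mean, over 573 genes with a mean of at least 50 scaled counts. Nearest to Crhbp were Ogn, which encodes the matrix proteoglycan osteoglycin, at 0.0666, and Mfap4, which encodes a protein of microfibrils, at 0.106. Nearest to Penk were F5, the coagulation factor V gene, at 0.166 and the anion transporter gene Slc26a4 at 0.197. Ogn had 555, 324 and 110 scaled counts in WT and 680, 593 and 578 in Slc6a4-/- samples, the order seen for Crhbp. The distance between Penk and Crhbp themselves was 0.273, and the ratio of Penk to Crhbp scaled counts stayed between 0.954 and 1.76 in all 6 samples. Of the 574 genes at this level, Crhbp and Penk included, 78 were more than 2 times higher in WT replicate 1 than in WT replicate 3. WT replicate 2 lay between in 74 of these, and all 74 had a higher mean in Slc6a4-/- samples, against 312 of the 574. Choosing genes by a low WT replicate 3 itself lowers the WT mean, so this direction was partly built in.

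**Figure D2:**
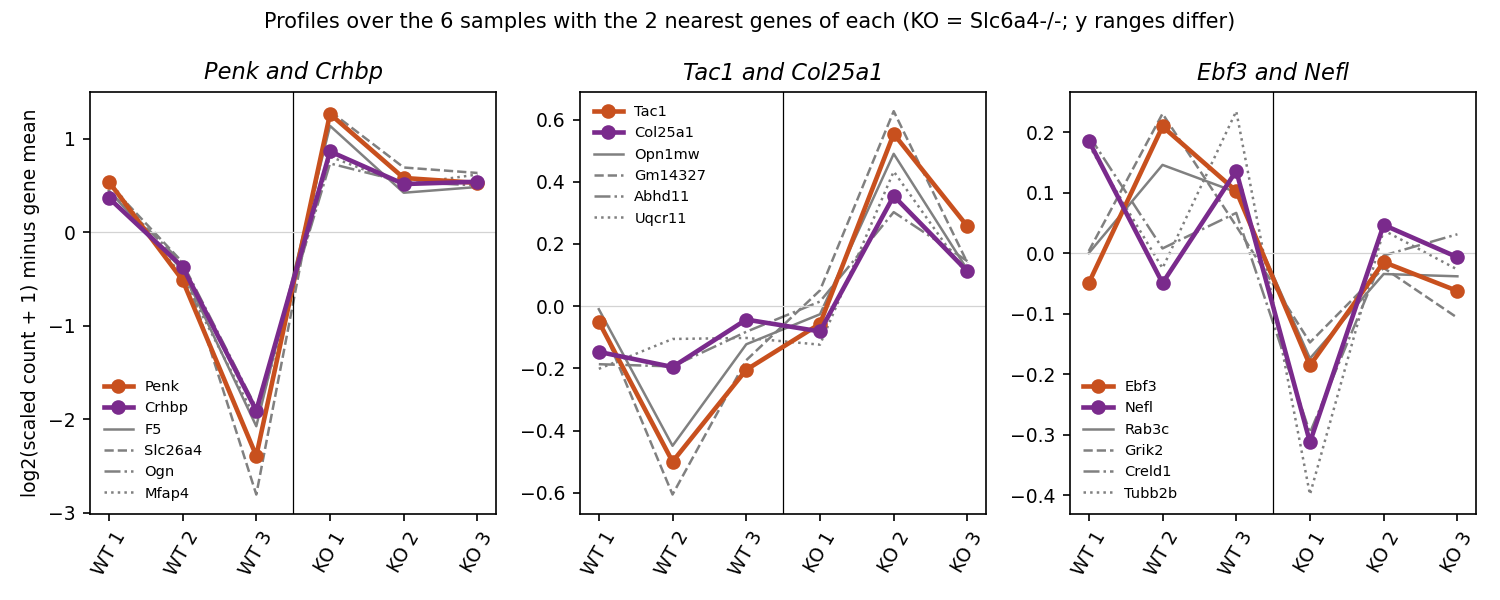
Profiles of the 6 genes (thick coloured lines, 2 to a panel) and of the 2 genes nearest to each in the table (grey), as log2(scaled count + 1) minus the gene's own mean over the 6 samples; KO stands for Slc6a4-/-, the y ranges differ, and lines join samples only to show the profile. Crhbp with Ogn and Mfap4 is lowest in WT replicate 3, and Tac1 with Opn1mw and Gm14327 is highest in Slc6a4-/- replicate 2.

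A list of 19 fibroblast and matrix genes, collected after these values were seen, had 14 members in the table, 13 of them with a higher and 1, Col1a1, with a lower mean in Slc6a4-/- samples. Their summed scaled counts were 5639 to 15632 in WT samples, lowest in replicate 3, and 14263 to 17343 in Slc6a4-/- samples. The groups of 8 of the 14 did not overlap, 7 higher and Col1a1 lower, a share near the 60.8% of the whole table, and the median log2 difference was 0.77. Of 10 pigment cell genes, 7 were in the table, all with a higher mean, and their sum was 1086 to 2555 in WT, again lowest in replicate 3, and 2370 to 4078 in Slc6a4-/- samples. The defining pigment gene Tyrp1 was detected in all 6 samples, at 489, 379 and 156 scaled counts in WT and 763, 657 and 459 in Slc6a4-/- samples. Of 9 Mueller glia and astrocyte genes, 4 were in the table, 3 higher and 1, Gfap, lower, with a sum of 25010 to 34179 in WT and 34294 to 39788 in Slc6a4-/- samples. The gap junction gene Gja1 of astrocytes had 1109, 670 and 220 scaled counts in WT, again in the order of Penk, and 1657, 1336 and 898 in Slc6a4-/- samples. The part of these cell types in the Penk and Crhbp values was not tested.

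Tac1 followed other genes. Nearest to it were the cone opsin gene Opn1mw at 0.0769 and Gm14327 at 0.0846. Vip ranked 5 in nearness, at 0.119, behind other genes that are not peptide genes. Opn1mw, which in mice is expressed most in dorsal retina, had 3038, 2241 and 2810 scaled counts in WT and 3004, 4295 and 3317 in Slc6a4-/- samples, with the lowest and highest in the same samples as Tac1. All 5 dorsal retina genes in the table, of 8 looked for, had a higher mean in Slc6a4-/- samples, and their sum was 4381 to 7046 in WT and 6784 to 11069 in Slc6a4-/- samples. Both ventral retina genes in the table, of 7 looked for, had a lower mean, and the sum of Vax2 and Opn1sw was 5919 to 17465 in WT and 4074 to 6515 in Slc6a4-/- samples. The part of dorsal or ventral tissue in the Tac1 value was not tested. Of 13 amacrine cell genes, 3 were in the table, and the inhibitory transmitter transporter gene Slc32a1 had a lower mean, 1059 ± 72.4 against 907 ± 156 scaled counts (SD, n = 3 each). Abat and Gldc, which encode enzymes that break down GABA and glycine, had higher means, with log2 differences of 0.20 and 0.52.

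Of the other marker lists, 6 of the 7 myeloid genes in the table, of 9 looked for, had a higher mean in Slc6a4-/- samples, against 397 of 701. The groups of 4 of the 7 did not overlap, a share near the 60.8% of the whole table, and the median log2 difference was 0.90. Hcls1, the member with the lower mean, had the highest counts of the list, 449 ± 103 in WT and 343 ± 42.4 in Slc6a4-/- samples (SD, n = 3 each), and the summed scaled counts were 681 to 764 in WT and 767 to 855 in Slc6a4-/- samples. Of 9 gland secretion genes, all in the table, the mean was higher for 2 and lower for 7, and the median log2 difference was -1.45. The sum, 596 to 751 scaled counts in WT and 710 to 1073 in Slc6a4-/- samples, went the other way, since most of it came from Lcn2 and Muc2, the pair with higher means. The myeloid and gland genes were listed with knowledge of which genes the table holds.

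Col25a1, at chr3:130131501-130599877 on the plus strand, marks RGC subtypes and encodes a collagen with a transmembrane segment. It had 747, 722 and 803 scaled counts in WT and 782, 1058 and 894 in Slc6a4-/- samples. The groups overlapped, with Slc6a4-/- replicate 1 inside the WT range. The means were 758 ± 41.3 and 911 ± 139 (SD, n = 3 each), and the log2 difference was 0.26 with an SE of 0.13 and a 95% interval from -0.06 to 0.57 (limma, adjusted p = 0.123). The exact two-sided permutation p was 0.2. Relative to the median of all 701 genes, which were selected for a difference, the Col25a1 log2 difference was -0.04. Of 4 transmembrane collagen genes looked for, Col23a1 was the other one in the table, with 3194, 2620 and 2239 scaled counts in WT and 3328, 3103 and 3225 in Slc6a4-/- samples, a log2 difference of 0.28 (limma, adjusted p = 0.114). Nearest to Col25a1 in profile were Abhd11, which encodes a mitochondrial hydrolase, at 0.0519 and Uqcr11, which encodes a subunit of respiratory complex III, at 0.0616.

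Ebf3, at chr7:137193673-137314445 on the minus strand, belongs to a family of transcription factors that act in neuronal differentiation, RGCs included. It had 682, 816 and 758 scaled counts in WT and 621, 699 and 676 in Slc6a4-/- samples. The groups overlapped, since WT replicate 1 lay below Slc6a4-/- replicate 2. The means were 752 ± 67.2 and 665 ± 40.1 (SD, n = 3 each), and the log2 difference was -0.17 with an SE of 0.11 and a 95% interval from -0.44 to 0.09 (limma, adjusted p = 0.175). The exact two-sided permutation p was 0.2. The raw counts, before scaling by depth, averaged 708 in WT and 707 in Slc6a4-/- samples. The Slc6a4-/- libraries were deeper, so the lower mean appeared once depth was taken into account. An exon of Ebf3 overlaps an exon of the antisense gene Gm45278.

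Of 24 EBF family and neuronal transcription factor genes, 11 were in the table. The mean was lower for 8 and higher for 3 (without scaling, 7 and 4). Limma's adjusted threshold was passed by 0 of the 11, where 1.57% of the whole table passed. Ebf1 had 733, 640 and 775 scaled counts in WT and 584, 694 and 613 in Slc6a4-/- samples, a log2 difference of -0.18 that became -0.01 without scaling. Ebf2, at a far lower count, had 14.1, 22.1 and 22.1 scaled counts in WT and 7.99, 7.35 and 7.15 in Slc6a4-/- samples, a log2 difference of -1.24 (limma, adjusted p = 0.0981), and its groups did not overlap. Onecut2, a factor of horizontal cell and RGC development, averaged 929 ± 64.3 scaled counts in WT against 739 ± 50.8 in Slc6a4-/- samples (SD, n = 3 each), also without overlap. Insm1, a zinc finger factor of neuronal and endocrine differentiation, had 424 ± 49.6 against 306 ± 47.4 (SD, n = 3 each). Among the 3 with a higher mean, Zic1 had 578, 432 and 273 scaled counts in WT and 784, 522 and 505 in Slc6a4-/- samples, and Zic4 had 99.0, 65.1 and 28.4 in WT and 141, 82.7 and 111 in Slc6a4-/- samples. Both Zic genes were lowest in WT replicate 3, as Penk and Crhbp were. Nearest to Ebf3 in profile were Rab3c, which encodes a GTPase of synaptic vesicles, at 0.0355 and the kainate receptor gene Grik2 at 0.041.

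Nefl, at chr14:68083863-68089095 on the plus strand, had 12790, 10869 and 12357 scaled counts in WT and 9059, 11615 and 11194 in Slc6a4-/- samples. The groups overlapped, and Slc6a4-/- replicate 1 was the lowest of the 6. The means were 12005 ± 1008 and 10623 ± 1370 (SD, n = 3 each). The log2 difference was -0.18 with an SE of 0.12 and a 95% interval from -0.47 to 0.11 (limma, adjusted p = 0.196), and the exact two-sided permutation p was 0.3. Raw counts averaged 11288 in WT and 11269 in the deeper Slc6a4-/- libraries, so for Nefl too the lower mean appeared once depth was taken into account. Exons of Nefl overlap exons of Nefm, which encodes the medium chain, on the opposite strand, and Nefm itself was not in the table.

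Of 24 neurofilament and axonal cytoskeleton genes, 15 were in the table, 14 with a lower and 1 with a higher mean after scaling by depth, a split that was 9 and 6 without scaling. Limma's adjusted threshold was passed by 0 of the 15, where 1.57% of the whole table passed. The groups of 8 of the 15 did not overlap, all lower, where 60.8% of the whole table did not overlap in either direction. Ina, which encodes alpha-internexin, had 1204, 1107 and 1109 scaled counts in WT and 946, 769 and 979 in Slc6a4-/- samples, a log2 difference of -0.35 (limma, adjusted p = 0.0981). It stayed lower without scaling, at -0.17. Dcx, which encodes the microtubule protein doublecortin, averaged 381 ± 23.8 scaled counts in WT against 308 ± 14.5 in Slc6a4-/- samples (SD, n = 3 each), without overlap. Kif5a, which encodes a motor of axonal transport, had 6165 ± 333 against 5775 ± 490 (SD, n = 3 each), with overlap. Tmsb4x, which encodes the actin-binding thymosin beta 4, had the higher mean, 2900 ± 242 against 3670 ± 731 (SD, n = 3 each). The median log2 difference over the 15 was -0.18 after scaling by depth, -0.34 with median-of-ratios scaling and -0.01 without scaling. Nearest to Nefl in profile were Creld1 at 0.0454 and the tubulin gene Tubb2b at 0.0552, both lowest in Slc6a4-/- replicate 1.

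**Figure D3:**
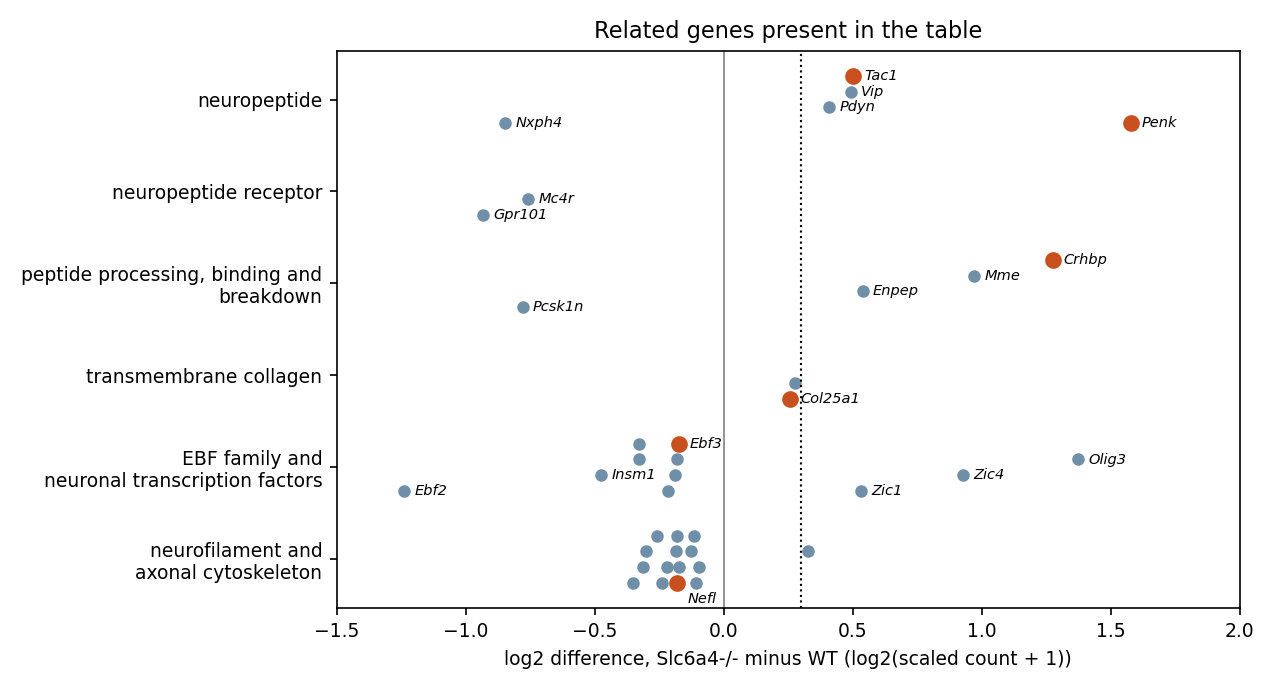
Log2 difference (Slc6a4-/- minus WT, limma on log2(scaled count + 1)) of the genes of 6 related lists that are in the table; each small dot is a gene, the larger orange dots are the 6 genes named at the start, and the dotted line is the median of all 701 genes, 0.299. Peptide genes lie mostly above 0, both genes listed as receptors, which had low counts, lie below it, and the axonal genes lie close together with a median of -0.18.

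Per kilobase of exon, Nefl was the highest of the 6 in both genotypes, and Ebf3 and Col25a1 the lowest. On the RPKM scale (reads per kilobase of exon and per M mapped reads), with the exon lengths that the authors' own values imply, Nefl was at 42.9 ± 3.6 in WT and 38.0 ± 4.9 in Slc6a4-/- samples (SD, n = 3 each). Penk was at 6.00 ± 4.88 and 13.7 ± 4.14, Crhbp at 4.05 ± 2.67 and 8.19 ± 1.14, and Tac1 at 2.68 ± 0.41 and 3.82 ± 0.80. Ebf3 was at 1.71 ± 0.15 and 1.51 ± 0.09, and Col25a1 at 1.21 ± 0.07 and 1.45 ± 0.22. In WT samples Penk and Crhbp reached down to the levels of Tac1 and Ebf3 and could not be ordered against them beyond their spread, while in Slc6a4-/- samples Ebf3 and Col25a1 could not be ordered. The implied exon length differed from the GENCODE length for Col25a1, Ebf3 and Tac1, so their levels rest on an exon model that could not be matched.

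The size of the smaller differences depended on how the libraries were scaled, and those of Ebf3 and Nefl were close to 0 without scaling. Counts left unscaled keep the greater depth of the Slc6a4-/- libraries, 81.1 to 93.3 M reads against 76.1 to 78.8 M in WT. Scaling by the median of ratios over the table lowered the median log2 difference of all 701 genes by 0.159, from 0.299 to 0.14, and leaving out scaling raised it by 0.176, to 0.475. A scaling moves nearly all genes by the same amount, so the distance of a gene from that median does not depend on it. But all 701 genes were selected for a difference between the genotypes, so that median is not a point of no change. Median-of-ratios scaling over the table rests on the same selected genes. Relative to the median, Penk was at 1.28, Crhbp at 0.98, Tac1 at 0.20, Col25a1 at -0.04, Ebf3 at -0.47 and Nefl at -0.48. Tac1 had a log2 difference of 0.34 under median-of-ratios scaling and 0.68 without scaling, where limma's adjusted p was 0.0478. Ebf3 was at -0.33 and 0.000576, Nefl at -0.34 and -0.01, and Col25a1 at 0.10 and 0.43. Under median-of-ratios scaling the groups of 3 of the 6 genes, Ebf3, Crhbp and Nefl, did not overlap, against 403 of 701 (57.5%) in the table. Without scaling those of 4 of the 6, Col25a1, Tac1, Crhbp and Penk, did not overlap, against 376 of 701 (53.6%). Crhbp was the only one of the 6 whose groups did not overlap under all 3 scalings.

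**Figure D4:**
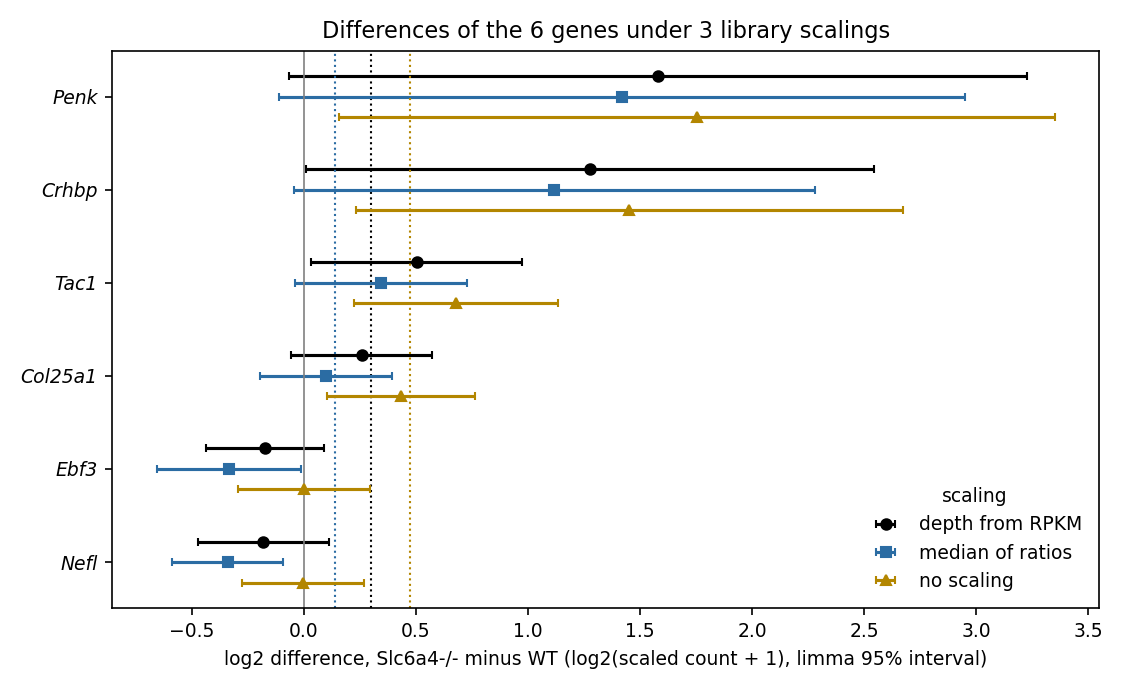
Log2 difference (Slc6a4-/- minus WT) of each of the 6 genes under scaling by depth (black), median-of-ratios scaling (blue) and no scaling (yellow), each with its 95% interval from limma; dotted lines mark the median of all 701 genes under each. Penk and Crhbp lie above 0 under all 3 scalings, and Ebf3 and Nefl lie at about 0 without scaling and below it otherwise.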

How the data were processed

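VT retina RNA of 3 WT and 3 Slc6a4-/- samples was analysed. The libraries were stranded total RNA with ribosomal RNA reduced, and the authors aligned reads to GRCm38 and counted them per gene in CLC Genomics Workbench v20.0, without a stated use of strand. The authors deposited raw read counts for 701 of 25676 transcripts, those with at least 10 reads in 2 samples of a genotype and p below 0.05 in their comparison. The deposited table also holds the mean RPKM of the higher genotype, from the authors, and their fold changes and p-values, which were not used. 0 per-sample columns were left out, and 25 blank lines were skipped.

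Counts are written with a comma as digit separator and were whole numbers once it was removed. No count model was fitted, since the unit check does not read values written this way as counts. That is a limit of the check and not of the data. The depth of each library was solved from counts, RPKM and GENCODE M21 exon lengths, using genes (RPKM of at least 2) whose implied depth lay within 1.0% of the mode, which were 82 of 168 in WT and 65 of 168 in Slc6a4-/- samples. The SE was 0.306% to 0.483%. Counts were divided by the relative depth, and log2(scaled count + 1) was fitted with limma 3.58.1 (lmFit, eBayes with trend) in R 4.3.3, genotype only, all 6 samples, Benjamini-Hochberg across 701 genes. Both steps were tested on simulated data. The simulated noise was independent between genes, its spread beyond counting was the same for all, and no gene was selected by p-value. The wide WT spread of Penk and Crhbp was thus not simulated. Exact two-sided permutation tests were made over samples. Counting error is Poisson only. Each sample is a pool of 3 mice, and the sources do not say whether the same mice entered more than 1 pool. The p-values set the difference between genotypes against the spread between pools.

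The genes named were the 6, the genes of the lists, the 2 nearest profiles per gene and Slc6a4. The 6 genes and the lists were chosen with earlier results of these data known, and the fibroblast list and the POU site after the values or the sequence were seen. Alternatives were other scalings, pseudocounts 0.5 and 10, no trend, voom weights, a mean of at least 50 scaled counts, a replicate block and leaving out each sample.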

Additional observations from a re-analysis of the deposited data

How the results depend on the processing

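Of 100 recomputed values, 86 kept their direction and their side of the threshold or stayed within 1.5 times the count. Fits without the trend, with the replicate block or with the count filter cannot change a log2 difference of the 6 genes. In these only the p-value could move. Without scaling the Ebf3 log2 difference was 0.000576, a value close to 0 whose sign carries no direction (adjusted p = 0.997), and Tac1 passed the adjusted threshold without scaling, at 0.678, both with limma. Unscaled counts keep the greater depth of the Slc6a4-/- libraries. Leaving out each sample gave log2 differences from 0.641 to 1.78 for Crhbp and from 0.777 to 2.24 for Penk, lowest without WT replicate 3 and highest without WT replicate 1, where both passed. The count of genes past limma's adjusted threshold, 11, was 7 with median-of-ratios scaling, 160 without scaling, 48 without the trend and 4 with the replicate block. It ranged from 5 (without WT replicate 2 or Slc6a4-/- replicate 2) to 170 (without WT replicate 1) on leaving out samples. The count of the 6 genes whose groups did not overlap, 1, was 3 with median-of-ratios scaling (57.5% of the table) and 4 without scaling (53.6% of the table), against 60.8% of the table with scaling by depth. The causes were not tested. Over the 15 fits, limma's adjusted p ranged from 0.054 to 0.467 for Col25a1, 0.087 to 0.997 for Ebf3, 0.0478 to 0.212 for Tac1, 0.049 to 0.214 for Crhbp, 0.049 to 0.236 for Penk and 0.0741 to 0.982 for Nefl.

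Same-numbered samples of the genotypes had deviations from their group means that correlated at 0.438, -0.143 and 0.223 over 574 genes. For differently numbered samples the correlations were -0.412 to 0.12. The same-numbered value was the highest for replicates 1 and 3 but not for replicate 2, so whether samples were paired could not be settled. The main fit used genotype only. The replicate block changed no call of the 6 genes. With 1 sample of each genotype per block, it cannot change their log2 differences. Under it limma's adjusted p was 0.0829 for Crhbp and 0.0808 for Penk. Limma's unadjusted p fell from 0.0485 to 0.0125 for Crhbp and from 0.0577 to 0.00812 for Penk.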
